A study of Mus musculus with 43 samples.

Results

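The comparison described here set lungs after 19 weeks of house dust mite extract (HDM) against lungs after 11 weeks, in mice given no antibody. The members are the libraries titled HDM19wk_None (n = 7 mice) and HDM11wk_None (n = 6 mice), 13 of the 43 lung RNA sequencing libraries of a study of antibodies in an asthma model. Per the labels and the series' design text, HDM went into the nose 3 times a week, and all mice were females of a hybrid 129S6/C57BL/6 strain aged 8 to 12 weeks. Mice meant for antibody testing had human sequence in place of their own Il4, Il33 and the ectodomain of Il4ra. The labels do not say whether mice without antibody carried these alleles. Mice given saline in place of HDM (n = 5) served as the baseline. A separate group received an isotype control antibody during exposure to HDM and was also harvested at 19 weeks (n = 7). The design text names 4, 15 or 19 weeks of exposure. The sample labels, which name 11 and 19 weeks, were followed here. Age at harvest and the length of saline treatment are not given, so that exposure and age cannot be told apart.

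House dust mite allergens and proteases act on airway epithelium, which releases alarmins such as IL-33. Group 2 innate lymphoid cells and T helper 2 cells then make IL-4, IL-5 and IL-13. These cytokines recruit eosinophils, turn airway epithelium towards mucus production and polarise macrophages to the alternatively activated state. Repeated exposure is used as a model of airway remodelling, in which collagen and smooth muscle build up and lymphoid aggregates form.

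Total counts ranged from 13714678 to 18185942 at 11 weeks and from 11932546 to 26749315 at 19 weeks. Levels are given as CPM, counts relative to the scaled library size, and compare a gene between mice, not genes of different length with each other. Libraries differed in how expression related to the GC content of transcripts. This GC slope, in log2 units per 10 percentage points of GC relative to the mean library, was -0.372 ± 0.197 (SD, n = 6) at 11 weeks and 0.168 ± 0.544 (SD, n = 7) at 19 weeks. The difference of 0.540 had a p of 0.0501 in a 2-sided exact permutation test over 1716 splits. Replicates 1, 2 and 7 at 19 weeks, with slopes of 0.582, 0.859 and 0.766, lay above 0.5, and no library at 11 weeks did. In the sample titles, 11 week replicates 1 to 4 are numbered right after saline, and replicates 8 and 9 right before the 19 week libraries. Replicates 1 to 4 had slopes of -0.553 to -0.449, and replicates 8 and 9 had -0.181 and -0.070. What the library numbers stand for is not given, and their part in the differences was not tested. One library also stood apart in cell content. Replicate 1 at 19 weeks held 4220 CPM of squamous epithelium genes, against 7.58 to 13.9 CPM in the other 6, and 1620 CPM of cardiac and striated muscle genes, against 72.4 to 133 CPM. Saline replicate 3 held 13600 CPM of the squamous genes. Results were recomputed without these 3 libraries of high slope, an alternative chosen after seeing the data. The part of the GC slope and of the squamous genes in the differences below was not tested.

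**Figure D1:**
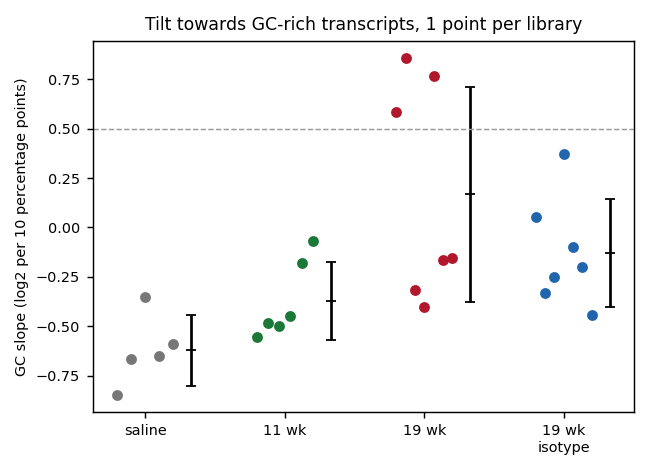
GC slope of each library (points; vertical axis, log2 units per 10 percentage points of transcript GC) by group, with the mean and SD as bars and a dashed line at 0.5. The 3 libraries at 19 weeks above the line have slopes of 0.582, 0.766 and 0.859, and every library at 11 weeks lies below 0.

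Few genes were called between the 2 exposures in the fit of all 43 libraries. Of 15979 genes tested, 14 rose from 11 to 19 weeks (0.0876%) and 3 fell (0.0188%) at an adjusted p under 0.05 in edgeR's quasi-likelihood test, which took its spread from all 43 libraries. At an unadjusted p under 0.05, 1379 genes were higher (8.63%) and 917 lower (5.74%), where 799 in all are expected if no gene differed. The 95% interval of the difference lay within 2-fold for 8358 genes (52.3%). Against saline, 1382 genes were raised (8.65%) and 1077 lowered (6.74%) at 11 weeks, and 3072 were raised (19.2%) and 2490 lowered (15.6%) at 19 weeks, together 15.4% and 34.8% of genes. Without the 3 libraries of high slope, 1441 were raised and 1269 lowered at 19 weeks. With the GC slope in the model, 2382 were raised and 2079 lowered at 11 weeks, and 3086 and 2676 at 19 weeks. Both counts depend on these settings, and counts of list members against saline below are to be read beside these shares. These contrasts share the saline libraries with each other and the HDM libraries with the main contrast.

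The count of genes called depended on the libraries fitted. With the spread taken from saline, 11 and 19 week libraries alone, 636 genes rose (4.08% of 15607) and 434 fell (2.78%), and all 17 genes named below were among them. Lists moved in both directions in it. It called 5 of 10 acute phase, 4 of 11 alveolar type 2 and 3 of 15 matrix and matricellular genes higher. It called 5 of 11 cholesterol synthesis, 5 of 12 B cell and 4 of 12 endothelial genes lower. Without the 3 libraries of high slope 1 gene rose, Gc, and 0 fell, in a comparison that keeps 4 of the 7 mice at 19 weeks. In that fit 379 of 16065 genes had an unadjusted p under 0.05, fewer than the 799 expected of 15979 genes if none differed. Over the 15970 genes counted beside the lists, 173 were higher and 200 lower at that p. A count of 0 in a short list is thus near the background of that fit. Single libraries also moved the total of 17. It was 1, 3, 7, 3, 0 and 3 without 11 week replicate 1, 2, 3, 4, 8 or 9. It was 6, 5, 7, 2 and 46 without 19 week replicate 1, 2, 5, 7 or 9. Each of the 17 kept its direction under all 31 alternatives, but not its size or its call. The 17 were picked from these mice and every alternative reuses 11 week libraries, so the kept direction is not separate support. Ypel4 and Gc were called in 26 and 25 of the 31, and Fignl1 and Pcdhga9 in 8 and 7. Over the 31, the log2 difference of Fignl1 ran from -1.57 to -0.58, that of Pcdhga9 from 0.54 to 1.19, that of Kif1a from 0.71 to 1.30 and that of Ncmap from 0.74 to 1.43. The plot of calls by setting gives the counts. All statements that a gene rose or fell refer to the fit of 43 libraries unless another is named.

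**Figure D2:**
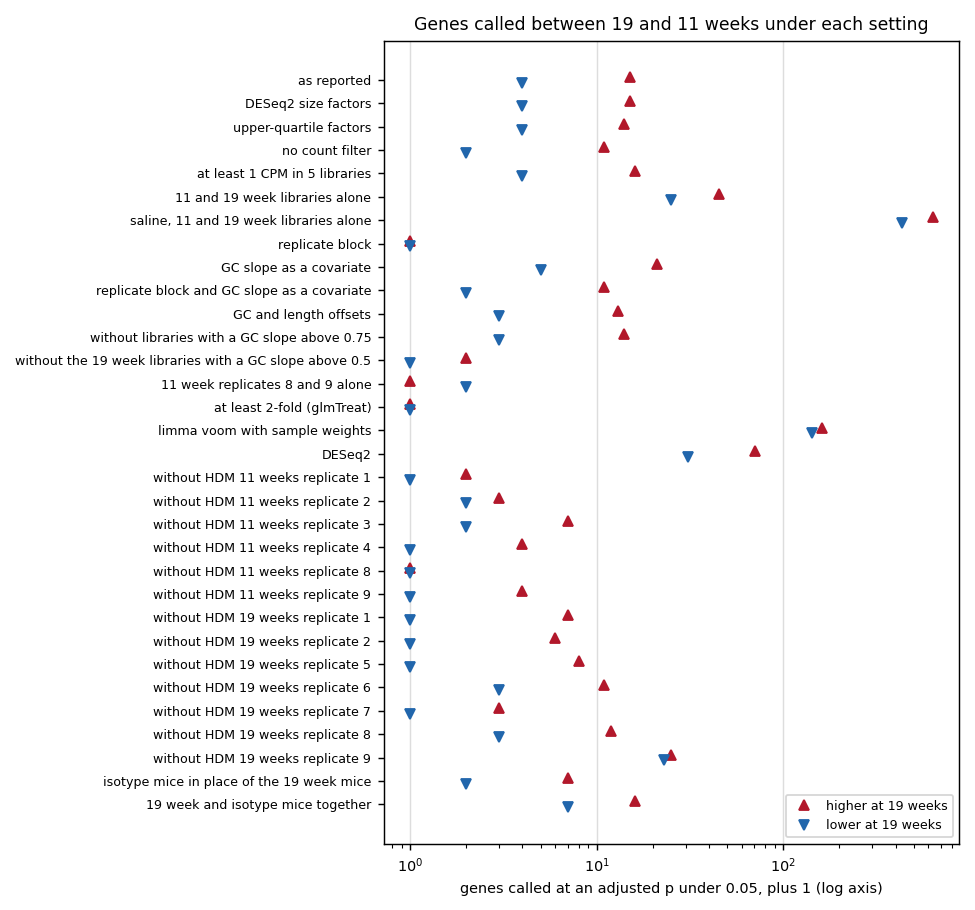
Number of genes called higher and lower at 19 weeks than at 11 weeks (adjusted p under 0.05) under the reported fit and each alternative, drawn as count plus 1 on a log axis. The reported fit calls 14 higher and 3 lower, and the counts run from 0 under the replicate block to 636 and 434 with saline, 11 and 19 week libraries alone.

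Gc had the largest log2 rise of the 14 genes. It encodes the vitamin D binding protein, a carrier normally secreted by liver (chromosome 5, 89417511 to 89457898, mm10). At 11 weeks it lay between 0.701 and 1.23 CPM (median 0.886) and at 19 weeks between 2.29 and 20.5 CPM (median 4.7), so the groups did not overlap. Its log2 difference was 2.88 ± 0.47 (SE, adjusted p = 0.01), and it was 3.34 without the libraries of high slope (adjusted p = 0.0025). Fga, the alpha chain of the clotting protein fibrinogen (chromosome 3, 83026153 to 83033627), ran from 3.31 to 7.9 CPM at 11 weeks (median 6.29) and from 12.8 to 47.9 CPM at 19 weeks (median 22.4). Every 19 week mouse was above every 11 week mouse, with a log2 difference of 2.21 ± 0.44 (adjusted p = 0.0328). In saline Fga was at 0.345 to 1.82 CPM, so it was raised at 11 weeks as well (log2 2.96, adjusted p = 0.000119). Without the libraries of high slope its difference was 2.60, with an adjusted p of 0.0517.

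Of the 13 tested genes of acute phase and liver-secreted proteins, 2 rose (Gc and Fga), 0 fell, 6 were higher at an unadjusted p under 0.05 and 12 had a log2 difference above 0. Their median was 0.39, against -0.00 over all genes tested. With the GC slope in the model the median was 0.09, with 8 above 0 and 5 below. The 4 genes Gc, Fga, Itih4 and Orm1 were apart in every mouse, where 0.707% of all genes were above and 0.701% below in every mouse. Itih4, a plasma protein of the inter-alpha-trypsin inhibitor family, was at 471 to 1030 CPM at 11 weeks (median 686) and 1170 to 2740 CPM at 19 weeks (median 1550). Its log2 difference of 1.26 ± 0.36 did not pass (adjusted p = 0.183). Orm1, the acute phase protein orosomucoid, had 2.4 to 9.67 CPM at 11 weeks and 13.7 to 34 CPM at 19 weeks (log2 1.63 ± 0.52, adjusted p = 0.22). Fgg, the gamma chain of fibrinogen, overlapped, at 3.31 to 10.3 against 5.13 to 46.6 CPM (log2 1.81 ± 0.46, adjusted p = 0.133). Summed over the list, the genes gave 1170 to 2000 CPM at 11 weeks and 2260 to 3590 CPM at 19 weeks. No other of the 51 lists with a tested member had summed levels apart in every mouse. Much of this sum was Itih4, with medians of 686 and 1550 CPM where the sum had 1430 and 3120 CPM. Other genes of liver cells were near 0. Alb, albumin, was at 0.0508 to 0.312 CPM at 19 weeks and at 0.056 to 0.21 CPM at 11 weeks. Fgb, the beta chain of fibrinogen, Apoa1 and Ttr had at most 0.0577, 0.052 and 0.149 CPM in any 19 week mouse. The serum amyloid gene Saa3, at 185 to 427 CPM at 11 weeks, was at 210 to 614 CPM at 19 weeks (log2 0.39 ± 0.57).

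Dmbt1 was the one goblet cell and mucus gene of 16 that rose. It encodes a scavenger receptor glycoprotein of mucosal surfaces (chromosome 7, 131032057 to 131121628). Its level was 0.526 to 1.98 CPM at 11 weeks (median 1.03) and 3.25 to 13.1 CPM at 19 weeks (median 8.68), with no overlap and a log2 difference of 2.80 ± 0.53 (adjusted p = 0.0279). At 11 weeks it did not pass against saline (log2 1.51, adjusted p = 0.118), and at 19 weeks it did (log2 4.31, adjusted p = 5.35e-06).

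The other 11 genes that rose had low to moderate levels. Ypel4, of the yippee-like family, went from 0 to 0.448 CPM at 11 weeks (median 0.37) to 1.14 to 3.29 CPM at 19 weeks (median 1.86), a log2 difference of 2.77 ± 0.48 (adjusted p = 0.01). Pkhd1, which encodes the ciliary membrane protein fibrocystin, went from 0.0981 to 0.248 CPM at 11 weeks to 0.448 to 2.25 CPM at 19 weeks (log2 2.57 ± 0.50). Rdh1, a retinol dehydrogenase, went from 0.526 to 1.06 CPM to 1.79 to 4.08 CPM (log2 1.64 ± 0.31). In these 3 genes every 19 week mouse was above every 11 week mouse. The same held for Tub, the tubby protein gene, at 1.46 to 2.4 against 4.68 to 7.73 CPM (log2 1.69 ± 0.33), and for Kif1a, a kinesin motor of axonal transport, at 24.8 to 44.8 against 50.6 to 107 CPM (log2 1.10 ± 0.23). It held also for Ncmap, a myelin-associated membrane protein (log2 1.30 ± 0.25), and for Frmpd1 (log2 1.41 ± 0.28). Frmpd1 had fallen at 11 weeks, to 2.61 to 5.26 CPM from 7.69 to 11.8 CPM in saline, and was back at 6.03 to 19.8 CPM at 19 weeks. Scube1, a secreted glycoprotein with EGF-like repeats, went from 13.3 to 30.1 CPM to 23.4 to 122 CPM (log2 1.78 ± 0.38), with 6 of 7 mice above the 11 week range. Shc2, a signalling adaptor, Nos1ap, an adaptor of neuronal nitric oxide synthase, and Pcdhga9 also had 6 of 7 mice above it, with log2 differences of 1.16, 1.27 and 1.09. Pcdhga9 is uncertain, since gamma protocadherins share their last exons. Of all 17 genes called, 12 had a mean under 10 CPM in both groups. Without the libraries of high slope the log2 differences of Frmpd1, Scube1 and Nos1ap were 0.85, 1.20 and 0.70, each with an adjusted p of 1.

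**Figure D3:**
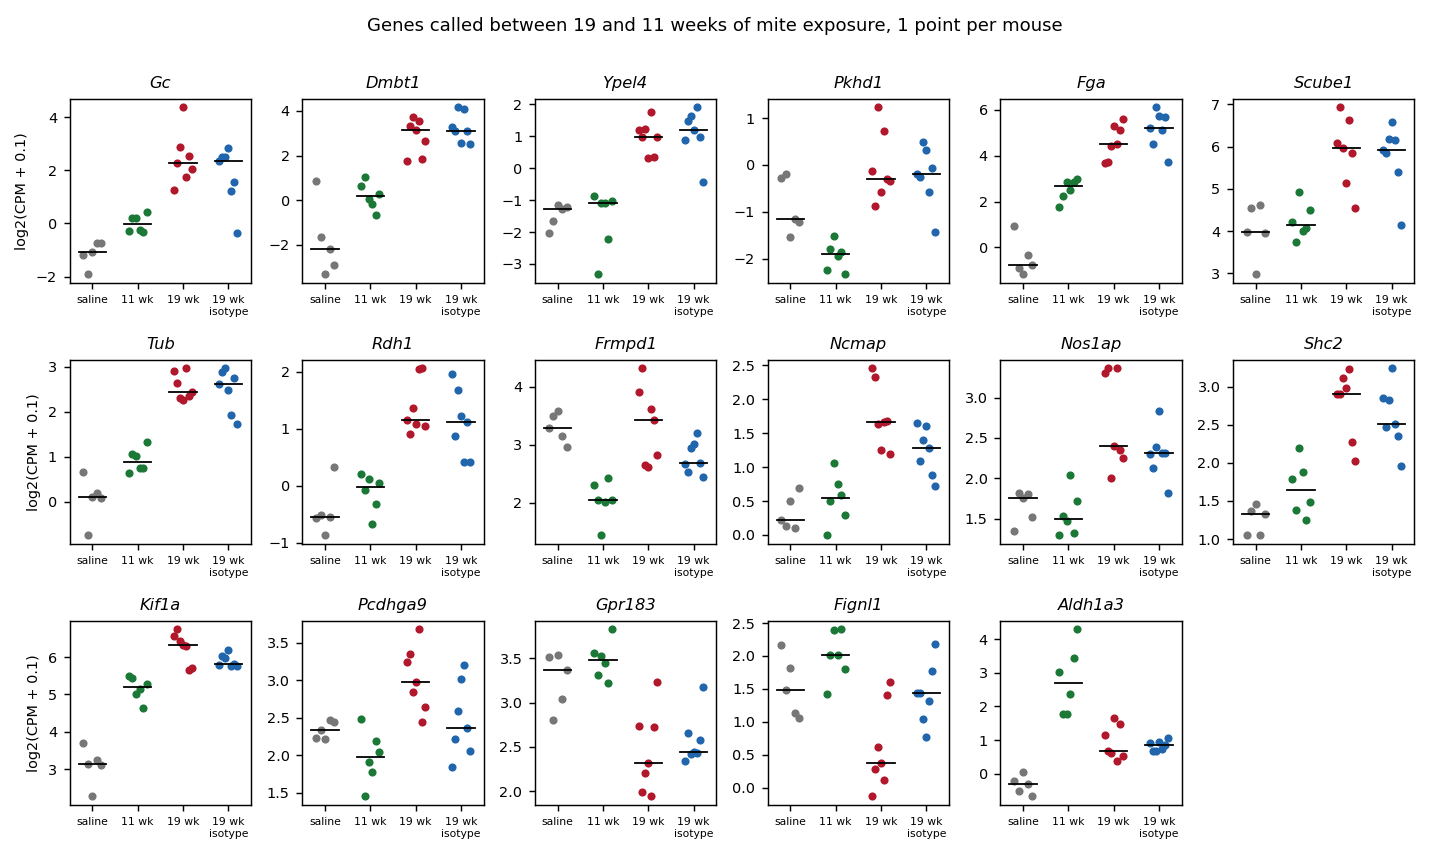
Levels of the 17 genes called between 19 and 11 weeks in every mouse, as log2 of CPM plus 0.1, in saline, 11 weeks of HDM, 19 weeks of HDM and 19 weeks of HDM with isotype antibody; the line in each group is the median. In 11 of the 17 genes the 11 and 19 week mice do not overlap, and Aldh1a3 is the only one of the 3 lower genes among those 11.

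The genes that fell were Aldh1a3, Gpr183 and Fignl1. Aldh1a3, an enzyme that makes retinoic acid from retinaldehyde (chromosome 7, 66390892 to 66427477), was at 3.29 to 19.6 CPM at 11 weeks (median 6.58) and at 1.21 to 3.07 CPM at 19 weeks (median 1.49). The groups did not overlap, and the log2 difference was -2.12 ± 0.42 (adjusted p = 0.0279). In saline it lay between 0.528 and 0.933 CPM, so that it was raised at 11 weeks (log2 3.55, adjusted p = 3.22e-06) and to a lesser level at 19 weeks (log2 1.43, adjusted p = 0.0196). No other of the 12 tested genes of retinoid synthesis and transport was called. That list does not hold the retinol dehydrogenase Rdh1, which rose. Aldh1a1, related to Aldh1a3 and lowered by HDM, had medians of 668 CPM in saline, 217 CPM at 11 weeks and 96.4 CPM at 19 weeks. Its log2 difference between exposures was -1.06 ± 0.38 (adjusted p = 0.253). Rbp4, the plasma retinol carrier, had medians of 8.9, 134 and 66.2 CPM in the same order (log2 -0.97 ± 0.42 between exposures, adjusted p = 0.329, and -1.57 without the libraries of high slope).

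Gpr183, the oxysterol receptor that positions B cells and dendritic cells in lymphoid tissue (chromosome 14, 121952331 to 121965193), was at 9.23 to 14.1 CPM at 11 weeks (median 11.1) and at 3.75 to 9.3 CPM at 19 weeks (median 4.88). All but 1 of the 19 week mice were below the 11 week range (log2 -0.98 ± 0.21, adjusted p = 0.0362). Saline mice had 6.89 to 11.5 CPM, and 19 weeks was also below saline (log2 -0.77, adjusted p = 0.00635). Fignl1, an ATPase of DNA recombination repair, went from 2.58 to 5.2 CPM to 0.813 to 2.93 CPM, with 6 of 7 mice below the range (log2 -1.34 ± 0.29, adjusted p = 0.0362). Other genes below in every mouse, chosen by their low p, had adjusted p between 0.113 and 0.153. They were Ttk, a mitotic kinase (log2 -1.40), Vrk1, a nuclear kinase (log2 -0.65), Cntn1, a contactin adhesion protein (log2 -1.92), Kcnmb2, a potassium channel subunit (log2 -1.33), and BC055324 (log2 -0.98). Without the libraries of high slope Vrk1 and BC055324 differed by -0.42 and -0.64. Cd40, the costimulatory receptor of B cells and dendritic cells, was also below in every mouse, at 11.4 to 16.3 against 5.85 to 10.8 CPM (log2 -0.84 ± 0.23, adjusted p = 0.153).

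Effector genes of type 2 inflammation did not pass the test between exposures. Of 14 tested type 2 cytokine and receptor genes, 0 rose, 0 fell, 3 were lower at an unadjusted p under 0.05 and 10 had a difference below 0, with a median of -0.34. Il13 was at 1.37 to 7.61 CPM at 11 weeks (median 5.26) and at 1.75 to 4.73 CPM at 19 weeks (median 2.71), against at most 0.0389 CPM in saline. The ranges overlapped (log2 -0.74 ± 0.45, adjusted p = 0.39), with a 95% interval from -1.66 to 0.18. Il5 was at 0.33 to 1.47 CPM and 0.231 to 1.14 CPM (log2 -0.58 ± 0.67). Il4 had 1 count in each group and was not tested, and the allele these mice carried is not given. The receptor genes with the lowest p were Ccr3, the eotaxin receptor of eosinophils, Il5ra and Il13ra2, the decoy receptor that IL-13 induces. Ccr3 was at 2.07 to 6.87 CPM at 11 weeks (median 3.58) and 0.75 to 2.83 CPM at 19 weeks (median 1.12), with 5 of 7 mice below the 11 week range (log2 -1.38 ± 0.36, adjusted p = 0.133). It passed against saline at 11 weeks (log2 2.31, adjusted p = 0.000106) and not at 19 weeks (log2 0.93, adjusted p = 0.0661). Il13ra2 went from 1.56 to 11.7 CPM to 0.808 to 6.44 CPM (log2 -1.56 ± 0.57, adjusted p = 0.267). In the fit of saline, 11 and 19 week libraries alone, 3 of these 14 genes fell, Ccr3 among them (adjusted p = 0.035). Over all genes 2.78% fell in that fit.

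Chemokines that draw eosinophils had lower medians at 19 weeks. Ccl11, eotaxin, was at 53.3 to 111 CPM at 11 weeks (median 96.2) and at 30.3 to 79.5 CPM at 19 weeks (median 42.1). Of the 7 mice at 19 weeks 6 were below the 11 week range, and the log2 difference was -1.03 ± 0.40 (adjusted p = 0.292). Ccl24, a second eotaxin made by macrophages, went from a median of 27.4 CPM (5.51 to 70.1) to 4.47 CPM (2.48 to 14.8), a log2 difference of -2.21 ± 0.85 (adjusted p = 0.294). Of the 14 chemokine genes tested, 0 rose, 0 fell, 5 were lower at an unadjusted p under 0.05 (1 without the libraries of high slope) and 12 were below 0 (median -0.54). The monocyte attractant Ccl7 was among the 5, at medians of 9.75 and 4.5 CPM (log2 -1.49 ± 0.50), whereas Ccl3, at 15.2 and 20.1 CPM, had a difference of 0.32 ± 0.39. The eosinophil granule gene Prg2 had medians of 7.64 and 5.03 CPM (log2 -0.49 ± 0.42), while Epx was at most 1.4 CPM in the 11 week mice and was not tested. Of the 8 eosinophil genes tested, 0 were called, 5 were below 0 and 3 above (median -0.55). In isotype mice against 11 weeks 4 were below and 4 above (median -0.13). In bulk lung, fewer cells of a type and less RNA per cell cannot be told apart.

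**Figure D4:**
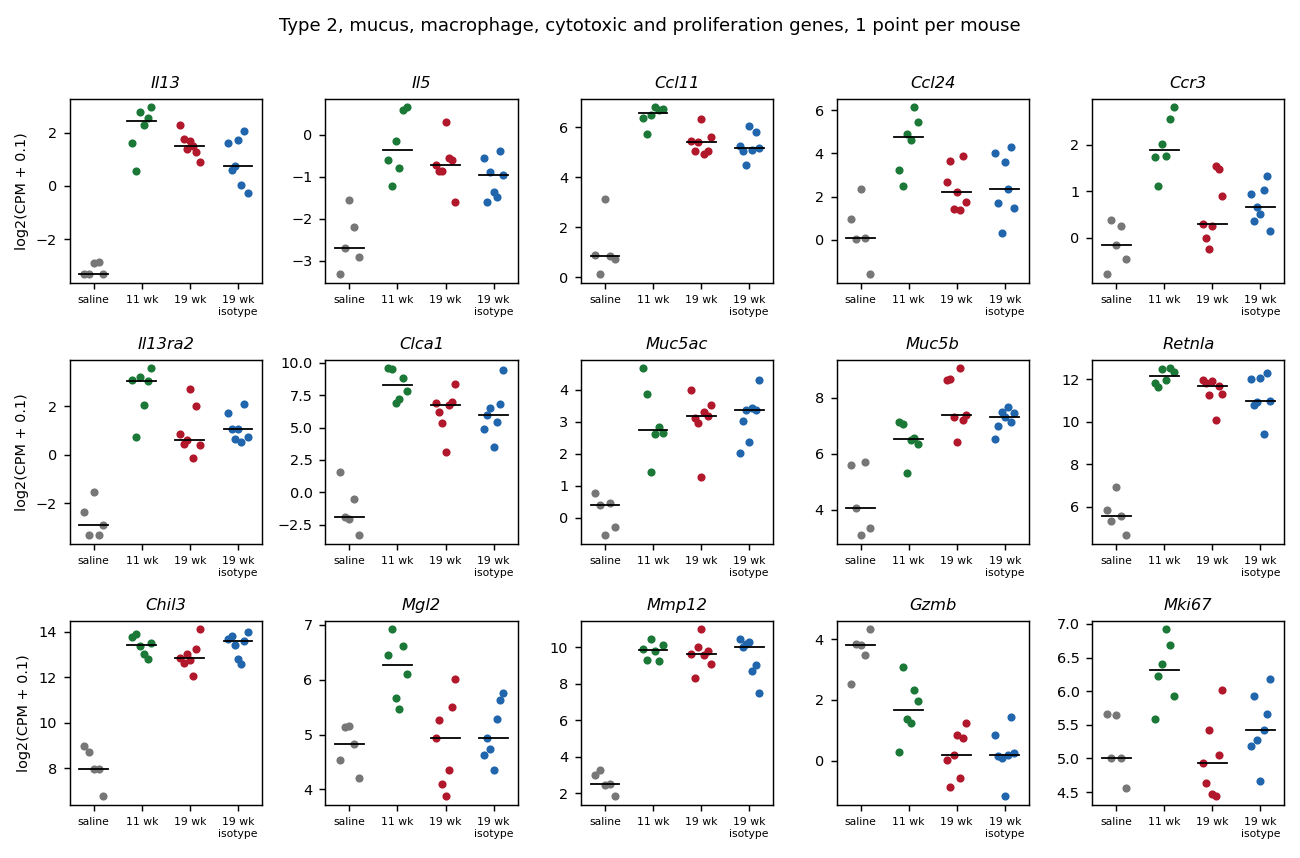
Levels of 15 effector and cell marker genes in every mouse, as log2 of CPM plus 0.1, in saline, 11 weeks of HDM, 19 weeks of HDM and 19 weeks of HDM with isotype antibody; the line in each group is the median. None of the 15 was called between 19 and 11 weeks, and Ccl11, Ccr3 and Mki67 have 6, 5 and 6 of 7 mice at 19 weeks below the 11 week range.

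Mucus genes differed among themselves. The secretory protein Clca1, which IL-13 induces in goblet cells, was at 118 to 764 CPM at 11 weeks (median 339) and at 8.57 to 335 CPM at 19 weeks (median 105), with a log2 difference of -1.82 ± 0.84 (adjusted p = 0.34). Muc5b, a gel-forming mucin, was at 39.5 to 139 CPM (median 91.4) and 86.3 to 528 CPM (median 165), with 6 of 7 mice above the 11 week range. Its log2 difference of 1.5 ± 0.42 (adjusted p = 0.183) was 0.54 without the libraries of high GC slope. Muc5ac, the other gel-forming mucin, differed by -0.16 ± 0.44 (-0.44 without them), at medians of 6.62 and 8.92 CPM. Slc26a4, the anion exchanger pendrin, had medians of 461 and 459 CPM. Against saline, 12 of the 16 genes were raised at both exposures and 14 at 19 weeks (11 and 12 without the libraries of high slope). The share raised over all genes went from 8.65% at 11 weeks to 19.2% at 19 weeks. The list's median between exposures was 0.13, and -0.27 without the libraries of high slope.

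All 15 alternatively activated macrophage genes had lower fitted levels at 19 weeks, though none was called. Of these, 7 were lower at an unadjusted p under 0.05, and the median log2 difference was -0.91 (-1.26 to -0.70 over 9 settings, and -0.96 without the libraries of high slope). Mgl2, a galactose-binding lectin of macrophages and dendritic cells, was at 44.2 to 121 CPM at 11 weeks (median 77.7) and at 14.6 to 64.7 CPM at 19 weeks (median 30.6; log2 -1.25 ± 0.33, adjusted p = 0.133). Mrc1, the mannose receptor, was at 228 to 352 CPM (median 294) and 61.1 to 272 CPM (median 149), with 6 of 7 mice below the 11 week range (log2 -0.98 ± 0.30, adjusted p = 0.2). Its difference was -0.34 in the isotype mice. The genes most used as markers of this state overlapped between exposures. Chil3, a chitinase-like protein, had medians of 11000 and 7330 CPM (log2 -0.35 ± 0.31), and its 95% interval lay within 2-fold. Retnla, a resistin-like protein, had medians of 4620 and 3260 CPM (log2 -0.63 ± 0.41), and Arg1, arginase, 322 and 254 CPM (log2 -0.88 ± 0.71). Against saline 12 of the 15 were raised at 11 weeks and 9 at 19 weeks.

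Genes of interstitial and lipid-handling macrophages did not share that pattern, with 10 of 14 above 0 and a median of 0.27. Gpnmb had medians of 31 CPM in saline, 986 CPM at 11 weeks and 1820 CPM at 19 weeks (log2 0.74 ± 0.47 between exposures). Mmp12, the macrophage elastase, had medians of 5.68, 931 and 789 CPM (log2 -0.04 ± 0.51). Apoe, a lipid carrier, was at 276 to 601 CPM at 11 weeks and 456 to 1550 CPM at 19 weeks (log2 1.19 ± 0.32, adjusted p = 0.155), and its difference was 0.75 without the libraries of high slope. Against saline, 8 of the 14 were raised at 11 weeks and 12 at 19 weeks (10 without the libraries of high slope), where the share over all genes rose from 8.65% to 19.2%.

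Most lymphocyte lists had a median below 0, though only Gpr183, above, was called. Of 12 B cell genes, 0 rose, 0 fell, 6 were lower at an unadjusted p under 0.05 and 10 were below 0 (median -0.83, and -1.03 without the libraries of high slope). Cr2, complement receptor 2, was at 6.78 to 22.5 CPM at 11 weeks (median 10.6) and at 1.79 to 6.23 CPM at 19 weeks (median 3.12), without overlap (log2 -1.83 ± 0.48, adjusted p = 0.144). Bank1, a B cell scaffold protein, was also apart in every mouse, at 10.7 to 26.5 against 5.03 to 10.3 CPM (log2 -1.42 ± 0.41, adjusted p = 0.183). Both were below saline at 19 weeks (log2 -2.30, adjusted p = 0.000591 for Cr2, and log2 -1.67, adjusted p = 0.00286 for Bank1) and not called against saline at 11 weeks. Cxcr5, the follicle homing receptor, had medians of 11.8 and 5.74 CPM (log2 -1.28 ± 0.37, adjusted p = 0.183). In the fit of saline, 11 and 19 week libraries alone 5 of the 12 B cell genes fell, where 2.78% of all genes did. Of 12 plasma cell genes, the 10 raised against saline at 11 weeks were also raised at 19 weeks, with a median of -0.30 between exposures. Jchain, the joining chain of secreted immunoglobulin, had medians of 55.4 CPM in saline, 2380 CPM at 11 weeks and 1200 CPM at 19 weeks (log2 -0.60 ± 0.50 between exposures, and -0.30 without the libraries of high slope), and Mzb1, a chaperone of antibody secretion, 7, 88.8 and 77.1 CPM (log2 0.02 ± 0.37).

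Natural killer cell genes were low against saline at both exposures. Of the 11 genes, 8 were lowered at both and 10 at 19 weeks (8 without the libraries of high slope), and all 11 had a difference below 0 between exposures (median -0.78, 5 at an unadjusted p under 0.05, or 3 without those libraries, and 0 called). Gzmb, granzyme B, was at 5.62 to 20 CPM in saline, 1.12 to 8.44 CPM at 11 weeks and 0.448 to 2.27 CPM at 19 weeks (log2 -1.63 ± 0.42 between exposures, adjusted p = 0.124). Gzma, granzyme A, had medians of 44.9, 7.76 and 2.49 CPM (log2 -1.64 ± 0.52, adjusted p = 0.21). Interferon response genes were below 0 in all 15 cases (median -0.86, 8 at an unadjusted p under 0.05, or 3 without those libraries, and 0 called). Ifit3, an interferon-induced antiviral protein, was at 24.8 to 70.9 CPM at 11 weeks (median 30.7) and at 8.23 to 30.3 CPM at 19 weeks (median 13.8), with 6 of 7 mice below the 11 week range (log2 -1.24 ± 0.35, adjusted p = 0.159). Of these 15 genes 2 were lowered against saline at 11 weeks and 8 at 19 weeks (6 without those libraries), where the share lowered over all genes rose from 6.74% to 15.6%. T cell genes had a median of -0.45, with 2 of 11 lower at an unadjusted p under 0.05 (-0.24 and 0 without those libraries).

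Fewer cell cycle genes were called against saline at 19 weeks than at 11 weeks, with 2 and 8 of 14 raised and medians of 0.35 and 1.07. Between exposures none was called, 10 were lower at an unadjusted p under 0.05 and all 14 were below 0 before rounding (median -0.67). Without the libraries of high slope 3 were lower at that p (median -0.58), and in isotype mice 4 (median -0.54). Mki67, a marker of dividing cells, was at 23.6 to 50.5 CPM in saline, 47.9 to 121 CPM at 11 weeks (median 79.9) and 21.6 to 64.8 CPM at 19 weeks (median 30.5). At 19 weeks 6 of 7 mice were below the 11 week range (log2 -1.26 ± 0.35, adjusted p = 0.154). Top2a, topoisomerase II alpha, had medians of 46.7 and 22.9 CPM (log2 -0.97 ± 0.29), and the replication licensing gene Mcm2 27 and 26.7 CPM. With saline, 11 and 19 week libraries alone 4 of the 14 fell, Mki67 among them (adjusted p = 0.0232). Over all genes 2.78% fell in that fit.

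Genes of cholesterol synthesis and ciliated cells also had medians below 0, at -0.53 and -0.59, with 5 of 11 and 4 of 11 genes lower at an unadjusted p under 0.05 and none called. In the fit without the libraries of high slope, 0 genes of either list had an unadjusted p under 0.05, with medians of -0.32 and -0.48. Idi1, an isomerase of the cholesterol pathway, had medians of 83 and 37.1 CPM (log2 -1.32 ± 0.38, adjusted p = 0.183), and its difference was -0.83 without the libraries of high slope. Ccdc39, which is needed to assemble motile cilia, had medians of 17 CPM in saline, 8.1 CPM at 11 weeks and 3.12 CPM at 19 weeks (log2 -1.22 ± 0.50 between exposures, adjusted p = 0.311, and -0.79 without those libraries).

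Matrix genes had higher medians at 19 weeks, and their differences shrank without the libraries of high GC slope. Of 13 collagens, 0 rose, 0 fell, 6 were higher at an unadjusted p under 0.05 and 11 were above 0 (median 0.75, and 0.22 without those libraries, where 0 had an unadjusted p under 0.05). Col1a1, the main fibrillar collagen chain, was at 202 to 644 CPM at 11 weeks (median 381) and at 451 to 2200 CPM at 19 weeks (median 873), with 5 of 7 mice above the 11 week range (log2 1.40 ± 0.41, adjusted p = 0.192). Its difference was 0.60 without those libraries, and 0.62 when the GC slope entered the model. Eln, elastin, was at 208 to 540 CPM and 340 to 1990 CPM (log2 1.62 ± 0.53, adjusted p = 0.223), and its difference was 0.76 and 0.58 under the same settings. Ltbp2, a microfibril protein that HDM raised at both times, was at 224 to 354 CPM and 324 to 1240 CPM (log2 1.31 ± 0.38), and at 0.68 and 0.57. Col3a1 had medians of 453 CPM in saline, 1170 CPM at 11 weeks and 1440 CPM at 19 weeks, and its 95% interval between exposures lay within 2-fold. Smooth muscle genes had a median of -0.45, with 9 of 10 below 0 and 2 at an unadjusted p under 0.05 (0 without those libraries). Acta2, smooth muscle actin, was at 241 to 725 CPM at 11 weeks and 167 to 343 CPM at 19 weeks (log2 -0.44 ± 0.25), and replicate 8 held the highest value at 11 weeks.

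Surfactant and glycolysis genes also had medians above 0. Of 11 genes of alveolar type 2 cells, 4 were higher and 1 lower at an unadjusted p under 0.05, with none called and a median of 0.44. With the libraries of high slope left out 0 had such a p, and the median was 0.29. Sftpb, surfactant protein B, was at 1600 to 2780 CPM at 11 weeks and at 2790 to 8170 CPM at 19 weeks, without overlap (log2 1.11 ± 0.38, adjusted p = 0.237), and its difference was 0.44 without them. Abca3, the lipid transporter of surfactant bodies, was also apart, at 455 to 676 and 732 to 1220 CPM (log2 0.69 ± 0.26), and its difference was 0.47 without them. Sftpc had medians of 10400 and 13100 CPM, with an interval within 2-fold. Glycolysis genes had a median of 0.54, and 6 of 11 were higher at an unadjusted p under 0.05, against 0.21 and 0 without those libraries. Pfkl, a phosphofructokinase, had medians of 63.2 and 107 CPM (log2 0.95 ± 0.38, and 0.55 without them).

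Many genes that HDM changed at 11 weeks were also called against saline at 19 weeks. Of all genes tested, 1227 were raised and 888 lowered at both exposures, against 1382 and 1077 at 11 weeks. Both contrasts share the saline libraries, so this overlap is partly built in. A fixed set of 33 genes, mostly type 2, inflammatory and remodelling genes, was chosen with earlier results of these data known. Its counts therefore do not measure how much of the response persisted. Of the 33, 32 were tested and none was called between exposures, where 0.106% of all genes were called. Against saline, 24 were raised and 2 lowered at 11 weeks, and 25 were raised and 3 lowered at 19 weeks. Of these, 22 were raised and 2 lowered at both exposures (21 and 2 without the libraries of high slope). The 95% interval lay within 2-fold for 8 of them, namely Il33, Chil3, Mzb1, Col3a1, Tnc, Acta2, Sftpc and Hopx. Il33, whose allele is not given, had medians of 15.2 CPM at 11 weeks and 17.1 CPM at 19 weeks (log2 0.01 ± 0.41). Tnc, the matrix protein tenascin C, had medians of 16.4 CPM in saline, 111 CPM at 11 weeks and 116 CPM at 19 weeks. Hopx, a gene of alveolar type 1 cells that HDM lowered, had 388, 112 and 89.4 CPM. For the other 24 tested genes the interval reached past 2-fold, and an unchanged level was not shown. Lcn2, a neutrophil-associated lipocalin, was at 44.7 to 97.7 CPM in saline, 799 to 1320 CPM at 11 weeks and 1180 to 1820 CPM at 19 weeks, with 6 of 7 mice above the 11 week range (log2 0.58 ± 0.22, adjusted p = 0.271). Npy, neuropeptide Y, was at most 0.0691 CPM in saline and had medians of 11.1 and 34.2 CPM (log2 1.31 ± 0.52, adjusted p = 0.308).

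The contrast of isotype mice with saline shares no library with the comparison of 19 and 11 weeks. It gave sets of HDM-responsive genes that held 25.3% of genes tested. The mean GC slope was higher in isotype mice than in saline (-0.129 and -0.621), and higher at 19 than at 11 weeks (0.168 and -0.372). In the sample titles, most 11 week libraries are numbered right after saline, and the isotype libraries right after the 19 week libraries. The contrasts are thus not separate in these respects, whose part in the shares below was not tested. Of 2073 genes raised in isotype mice against saline (13%), 74.6% were higher at 19 than at 11 weeks, with a median log2 difference of 0.29, 10 called higher and 1 lower. Of 1977 genes lowered (12.4%), 24.3% were higher, with a median of -0.34, 0 called higher and 1 lower. Over all genes tested 49.9% were higher, with a median of -0.00. Under other settings the sets were defined anew, so the shares are not for the same genes. Without the libraries of high slope (2120 and 2024 genes) the shares were 71.2% and 17.3% and the medians 0.14 and -0.24. With the GC slope in the model (3038 and 2908 genes) they were 70.2% and 32.7%, with medians of 0.16 and -0.15. With GC and length offsets (2581 and 2802 genes) they were 71.2% and 30.3%, with medians of 0.17 and -0.15. These sets were defined at 19 weeks of exposure, so they hold genes that respond at that time.

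The isotype mice also served as a second group at 19 weeks, which shares the 11 week libraries and received an antibody. Set against the 11 week mice, they gave 6 genes higher (0.0375%) and 1 lower (0.00626%), together 0.0438%, with 751 genes at an unadjusted p under 0.05 (4.7%). Both 19 week groups together against 11 weeks gave 15 genes higher (0.0939%) and 6 lower (0.0375%), together 0.131%. Of the 17 genes above, 12 were called with both groups together, and Ypel4, Dmbt1, Tub, Fga and Aldh1a3 with the isotype mice alone. Fga was at 13 to 68.6 CPM in isotype mice and Dmbt1 at 5.55 to 17.8 CPM, both above every 11 week mouse. Aldh1a3 was at 1.51 to 2 CPM, below every 11 week mouse. Gc, at 0.683 to 7.08 CPM, overlapped the 11 week range (log2 2.16, adjusted p = 0.0879). By list, the medians of the 19 week and the isotype mice against 11 weeks were -0.91 and -0.70 for alternatively activated macrophages, -0.86 and -0.83 for the interferon response, -0.83 and -0.85 for B cells, and -0.78 and -1.05 for natural killer cells. They were -0.67 and -0.54 for the cell cycle, 0.39 and 0.67 for the acute phase, and 0.75 and 0.33 for collagens. The summed acute phase level in isotype mice, 1420 to 3770 CPM, overlapped the 11 week range.

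**Figure D5:**
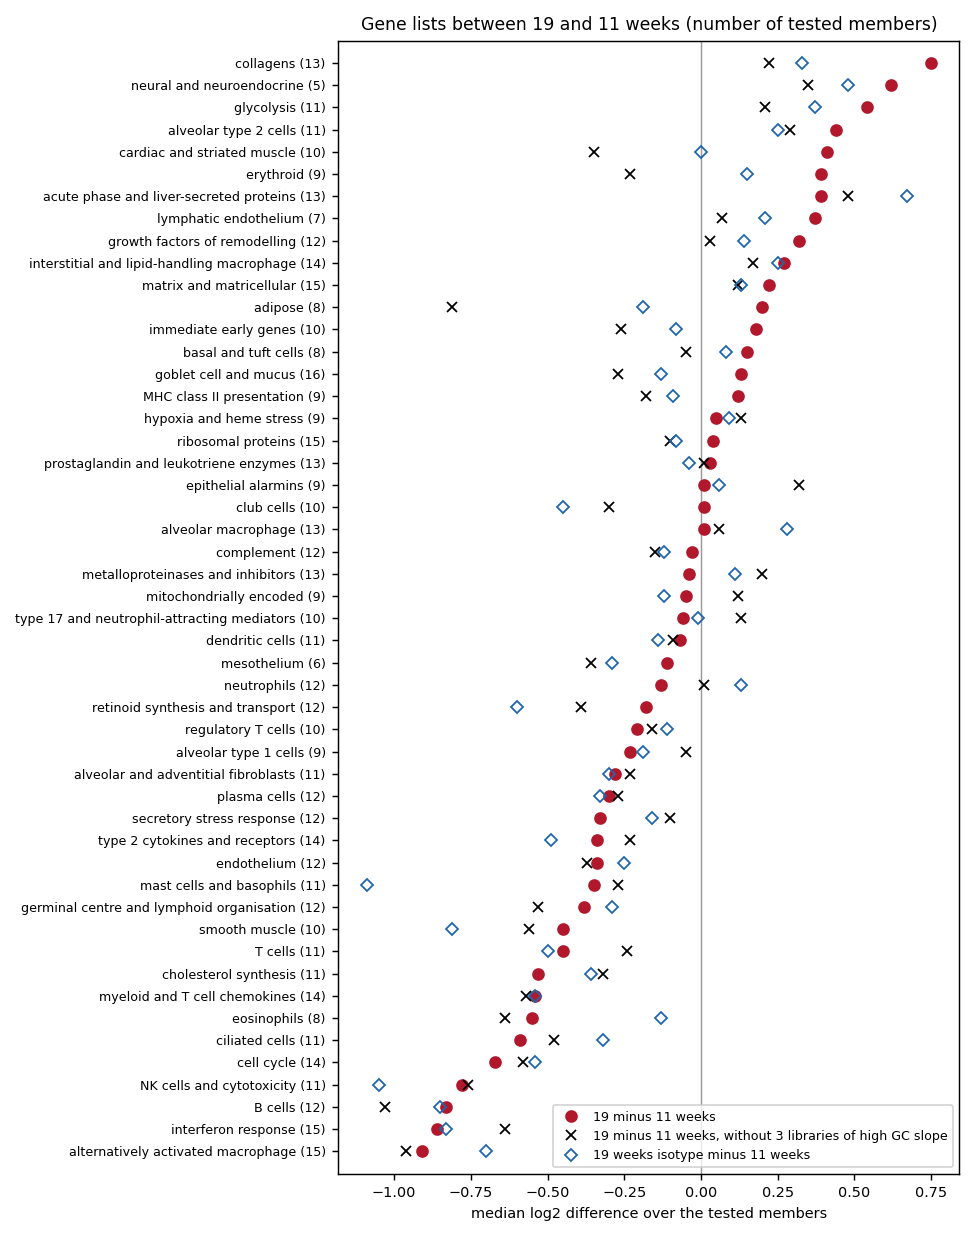
Median log2 difference from 11 weeks for each gene list: 19 weeks (circles), 19 weeks without the 3 libraries of high GC slope (crosses) and isotype mice at 19 weeks (diamonds); the squamous epithelium list, set by replicate 1 at 19 weeks, is left out. Lists for alternatively activated macrophages, interferon response, B cells, natural killer cells and cell cycle lie below -0.5 by all 3 marks, and collagens move from 0.75 to 0.22 without the 3 libraries.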

How the data were processed

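Whole lung RNA was sequenced as strand-specific single reads of 33 cycles, per the labels' protocols. The authors deposited 1 table of expected counts per gene, not scaled to depth, in which 76.8% of nonzero values were whole. The build was mm10, per the submitters' processing notes, with the aligner, the counter and the gene models not given in the sources used here. Expected counts were rounded, filtered with filterByExpr (15979 of 24475 genes kept) and scaled by TMM. All 43 libraries in 7 groups entered 1 model in edgeR 4.0.16 (quasi-likelihood, 36 residual degrees of freedom), and p-values were adjusted across every gene tested (Benjamini-Hochberg). P-values measure the spread between these mice. Symbols and positions came from RefSeq GRCm38.p6. Genes with shared or overlapping sequence are uncertain.

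Named were all genes called between 19 and 11 weeks, a fixed set of 33, up to 4 members of each of 52 lists by p, up to 8 genes per direction without overlap, and list members as examples. The members and lists were chosen with earlier results of these data known. Alternatives were other scalings, filters, subsets and blocks, GC adjustments, DESeq2 1.42.0, limma 3.58.1 voom, and leaving out each replicate. The code was tested on simulated data.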

Additional observations from a re-analysis of the deposited data

Results flagged for a closer look

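Among 102 groups of values examined, 13 values of single mice lay far from the rest of their group by Dixon's criterion. Chance meets it in about 1 of 20 groups if values are normally distributed. The criterion was applied to CPM without logs, so that rate need not hold here. A single count among values of 0, as for Il4 below, always meets it. At 19 weeks, replicate 6 held the highest Gc (20.5 CPM, next 7.13), Il5 (1.14 CPM, next 0.577), Ccl11 (79.5 CPM, next 49.3) and Mmp12 (2050 CPM, next 1060). Replicate 9 held the highest Clca1 (335 CPM, next 123), Chil3 (17700 CPM, next 9750) and Ncr1 (1.55 CPM, next 0.52), the last a receptor of natural killer cells. Replicate 7 held the lowest Tnc (76.7 CPM, next 113). At 11 weeks, replicate 8 held the highest Eln (540 CPM, next 318) and Acta2 (725 CPM, next 370), and replicate 9 the highest Il4ra (315 CPM, next 195). Il4 had a single count in replicate 3 at 11 weeks (0.0621 CPM) and in replicate 9 at 19 weeks (0.033 CPM).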

How the results depend on the processing

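The counts of genes higher and lower at 19 than at 11 weeks, 14 and 3, were 44 and 24 in the 2 groups alone, 636 and 434 with saline added, 161 and 142 with limma voom, 70 and 30 with DESeq2, 0 and 0 for a change of at least 2-fold, 0 and 1 with 11 week replicates 8 and 9 alone, and 6 and 1 with isotype mice. Without the 3 libraries of GC slope above 0.5, a choice made after seeing the data, they were 1 and 0. Without a count filter 1 was lower, and 6 were lower with both 19 week groups together. Leaving out 1 replicate gave 0 to 24 higher and 0 to 22 lower: 0 and 0 without 11 week replicate 8, and 24 and 22 without 19 week replicate 9. Replicate numbers 1, 2, 8 and 9 occur in both groups, and the deviations of same-numbered mice correlated at -0.111, -0.119, -0.101 and -0.231. These values gave no sign of pairing, but they cannot exclude it, since what the numbers mean is not given. With the replicate block 0 genes were higher and 0 lower (1213 at an unadjusted p under 0.05), and with the block and the GC slope together 1 was lower; no sample correlated best with its own number.

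Against saline, the GC slope as covariate gave 2382 higher and 2079 lower at 11 weeks, and offsets gave 2019 lower. Leaving out 1 replicate gave 1067 to 1377 higher and 758 to 1054 lower. At 19 weeks the counts were 1441 and 1269 without the 3 libraries, and 2302 to 3203 and 1926 to 2599 without 1 replicate. Isotype against 11 weeks gave 3 and 0 with the replicate block, 16 and 5 with the GC slope, 3 lower with offsets, 23 and 7 with DESeq2, and 3 to 14 and 0 to 4 without 1 replicate. The 8358 genes within 2-fold became 5308 with 11 week replicates 8 and 9 alone, 13042 with voom and 7373 to 8702 without 1 replicate. The 225 genes without overlap became 345 without the 3 libraries and 237 to 546 without 1 replicate. The GC slope difference ranged from 0.425 to 0.635 without 1 replicate, passing without 11 week replicate 9 or 19 week replicate 5, 6, 8 or 9. The causes were not tested. Of 4842 values for single genes, 127 newly passed the threshold and 273 no longer did. Another 63, for 15 genes, changed sign, 0 of them called in either fit. Genes under 1 CPM, among them Il5 and Il4, rest on few counts.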

Other observations

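Of 12 endothelial genes tested, none was called between exposures, 7 had a difference below 0, and 3 were lower and 1 higher at an unadjusted p under 0.05 (median -0.34). Without the 3 libraries of high GC slope 11 were below 0 and 0 had such a p (median -0.37). Ednrb, the endothelin B receptor, had medians of 99.1 CPM in saline, 34.1 CPM at 11 weeks and 9.15 CPM at 19 weeks (log2 -1.35 ± 0.48 between exposures, adjusted p = 0.263). Plvap, a protein of fenestrated and venous endothelium, had 210, 159 and 205 CPM (log2 0.92 ± 0.47). In edgeR's quasi-likelihood test against saline, 4 of the 12 were lowered at 11 weeks and 6 at 19 weeks, or 5 without those libraries, where 6.74% and 15.6% of all genes were.

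Of 10 regulatory T cell genes, 7 were raised against saline at both exposures, namely Foxp3, Ctla4, Tnfrsf4, Tnfrsf18, Icos, Tigit and Areg. Without the 3 libraries of high GC slope 6 were. The share raised over all genes went from 8.65% at 11 weeks to 19.2% at 19 weeks. The median of the regulatory T cell list between exposures was -0.21. Foxp3, their lineage factor, was at 1.05 to 1.82 CPM in saline, 2.64 to 5.69 CPM at 11 weeks and 2.19 to 4.96 CPM at 19 weeks (log2 -0.04 ± 0.39 between exposures). Of 10 tested mediators of type 17 and neutrophil responses, 8 were raised against saline at 11 weeks and 9 at 19 weeks, with a median of -0.06 between exposures. Cxcl5, a neutrophil attractant, had medians of 0.207 CPM in saline, 26.3 CPM at 11 weeks and 17.7 CPM at 19 weeks (log2 -0.70 ± 0.45). Il17a, a cytokine of type 17 cells, was listed at 0 in every saline mouse, at 0 to 0.124 CPM at 11 weeks and at 0.0508 to 0.396 CPM at 19 weeks (unadjusted p = 0.0803, adjusted p = 0.369). None of the 12 neutrophil marker genes had an unadjusted p under 0.05 between exposures (median -0.13).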
